A study of Mus musculus with 8 samples.

Results

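Tal1, Gata2, Lmo2, Runx1, Spi1 and Hhex encode regulators of transcription in the blood and vessel lineages, and Kdr, Cdh5, Pecam1 and Tek encode proteins on the surface of endothelial and blood cells. These 10 genes were chosen by name, as lineage genes, from the 21352 genes of each table, and all 10 were found on autosomes, which hold 20368 of those genes. Each gene was read as a level, the reads of both alleles per 1000000 reads of chromosomes 1 to 19 (CPM), and as a second-allele share, the percent of its allelic reads assigned to the second allele.

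The libraries came from CUT&RUN on primordial germ cells (PGCs) of the mouse, which later form eggs or sperm, sorted from pooled embryos of 1 sex. CUT&RUN uses an antibody to bring a nuclease to chromatin, so that DNA near the antibody's target is released and sequenced. There were 5 libraries with a table, each the single library of its group. H3K27me3 was profiled in E11.5 females and E12.5 females, and IgG, the control antibody with no chromatin target, in males at E11.5 and in females at E12.5 and E13.5. The animals of all groups were B6 x Cast hybrids that carried Oct4-eGFP+/-, a fluorescent reporter of germ cells. All also carried an Xist knockout, as Xist KO/+ in females and Xist KO/Y in males, so that every group, controls included, shares it. The labels give 3 further H3K27me3 samples as a second replicate, 2 of them parts of 1 replicate, which were not analysed here. With 1 library in each group no spread between replicates could be measured. Every 95% interval below covers counting error only, and comparisons are between libraries and not between conditions.

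H3K27me3 is the trimethylation of lysine on the tail of histone H3 that Polycomb repressive complex 2 writes, and it is found over silent genes of other lineages. Blood stem cells arise in the embryo from endothelium, and both lineages share regulators. TAL1, a basic helix-loop-helix factor, acts in a complex with the LIM-only adaptor LMO2 and a GATA factor such as GATA2, RUNX1 is needed for blood stem cells to leave the endothelium, SPI1 (PU.1) directs myeloid and B cell fate, and HHEX is a homeobox factor of early endothelium, liver and thyroid. Of the surface proteins, KDR is the main receptor for VEGF, TEK (TIE2) is the receptor for angiopoietins, and CDH5 (VE-cadherin) and PECAM1 (CD31) join endothelial cells to each other. PECAM1 is also known from pluripotent and early germ cells.

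The start regions of these genes were read from RefSeq (GRCm38.p6), as the 250 bases before each annotated start. The table held 9 such windows for 6 of the genes, Tal1, Gata2, Runx1, Hhex, Kdr and Tek. CpG dinucleotides were counted, because CpG-rich starts are known as sites where Polycomb complexes bind. Those of Gata2 and Hhex, whose levels differed most between the stages, and the outermost starts of Tal1 and Runx1 are shown, 5′ to 3′ in the direction of the gene, with each CpG in capitals.
Gata2 (chr6:88193641-88193890, plus strand): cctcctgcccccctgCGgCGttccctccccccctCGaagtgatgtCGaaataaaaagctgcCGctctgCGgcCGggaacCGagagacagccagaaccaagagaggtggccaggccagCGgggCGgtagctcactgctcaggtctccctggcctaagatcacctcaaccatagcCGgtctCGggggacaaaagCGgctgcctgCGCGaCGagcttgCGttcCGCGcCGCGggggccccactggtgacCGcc
Hhex (chr19:37434591-37434840, plus strand): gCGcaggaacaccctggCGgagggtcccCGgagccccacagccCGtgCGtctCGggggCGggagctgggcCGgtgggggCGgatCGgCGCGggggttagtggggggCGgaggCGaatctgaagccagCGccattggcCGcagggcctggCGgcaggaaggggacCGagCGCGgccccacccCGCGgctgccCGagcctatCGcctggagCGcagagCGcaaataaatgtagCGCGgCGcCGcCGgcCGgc
Tal1 (chr4:115056176-115056425, plus strand): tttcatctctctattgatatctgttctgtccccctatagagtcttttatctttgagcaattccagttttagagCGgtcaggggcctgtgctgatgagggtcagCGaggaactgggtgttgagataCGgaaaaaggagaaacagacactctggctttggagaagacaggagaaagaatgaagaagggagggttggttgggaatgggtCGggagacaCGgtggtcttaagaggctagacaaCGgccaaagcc
Runx1 (chr16:92826075-92826324, minus strand): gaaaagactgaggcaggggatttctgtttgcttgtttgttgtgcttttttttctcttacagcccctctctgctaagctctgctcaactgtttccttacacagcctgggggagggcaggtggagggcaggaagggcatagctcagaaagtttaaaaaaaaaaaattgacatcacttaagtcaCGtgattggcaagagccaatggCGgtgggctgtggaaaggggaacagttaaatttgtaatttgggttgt

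The windows differed widely in CpG content. Hhex had 32 CpGs, more than 95.4% of 32851 RefSeq windows of this length, and Gata2 had 22 at its first start and 24 at its second. Runx1 had 2 at its outer start and 27 at its inner start (chr16:92697330-92697579), and Tal1 had 6 at its outer start and 16 at its inner start (chr4:115057561-115057810). Of the surface marker genes, Kdr had 16 and Tek 2. Calling a window CpG-rich where its G+C content was at least 50% and its observed CpG count at least 0.6 of that expected from its bases, 6 of the 9 windows qualified, against 31.0% of all. Each of the transcription factor genes with a window had at least 1 of this kind, as had Kdr, while Tek had none. Counted by gene, this is common: of the autosomal genes tested at E11.5, 6189 had at least 1 such window and 5636 had none.

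The libraries held 2356356 (H3K27me3 E11.5), 5020062 (H3K27me3 E12.5), 1357583 (IgG E11.5), 1515532 (IgG E12.5) and 5705401 (IgG E13.5) autosomal allelic reads, a median of 23 to 91 reads per autosomal gene. In the H3K27me3 libraries the median autosomal gene lay below its IgG level, by a log2 ratio of -0.49 at E11.5 and -0.54 at E12.5. A ratio of 1 is therefore above the typical gene. The PGC label was set beside H3K27me3 at marker genes, as the tables hold no RNA. None of the 6 germ cell genes with enough reads at both stages was enriched at least 2-fold over IgG at both. Kit, among them, stood at 0.486-fold and 0.472-fold. Of autosomal genes with enough reads at both stages 11.9% were so enriched, and none among 6 genes is near that share. All 7 somatic gonad genes with enough reads were enriched at both, among them Gata4 (5.71-fold and 5.05-fold). That count is partly set by the filter on reads. Some gonad genes passed it through their H3K27me3 reads, as Emx2 did at E11.5 (240 reads against 5 in IgG). Between IgG E11.5 and IgG E12.5, 5 of the 8 listed somatic gonad genes and 8 of the 11 listed germ cell genes had enough reads. In these bulk libraries, a mark on fewer cells and less mark per cell cannot be told apart, and a part of cells from vessels or blood in the sort was not tested.

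The transcription factor genes had higher levels in H3K27me3 than in stage-matched IgG, except Gata2 at E12.5, and the surface marker genes, apart from Kdr, had lower ones. Levels of both H3K27me3 libraries lay above those of all 3 IgG libraries for 6 genes, Tal1, Lmo2, Runx1, Spi1, Hhex and Kdr, a pattern that 23.9% of autosomal genes with enough reads showed. They lay below all 3 for Pecam1 and Tek, which held for 49.7% of autosomal genes. Gata2 and Cdh5 overlapped the controls. A gene was called enriched where its log2 ratio to IgG, with a pseudocount of 1 CPM added to both levels, was at least 1, that is 2-fold, over genes with at least 20 reads in both libraries together. A gene can thus pass this filter through its H3K27me3 reads alone. At E11.5, 6 of the 10 genes were called, all of them transcription factor genes, against 17.2% of 15050 autosomal genes. At E12.5, 2 of the 10 were called, Tal1 and Runx1, against 15.2% of 16526 genes. With IgG E13.5 as control, 6 of the 10 were called at E11.5 (16.8% of autosomal genes) and 4 at E12.5 (15.9%). With the 3 IgG libraries summed, the counts were 6 (15.4%) and 4 (14.5%). Pecam1 was called lower at both stages against stage-matched IgG, as were 29.7% and 29.5% of autosomal genes.

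**Figure D1:**
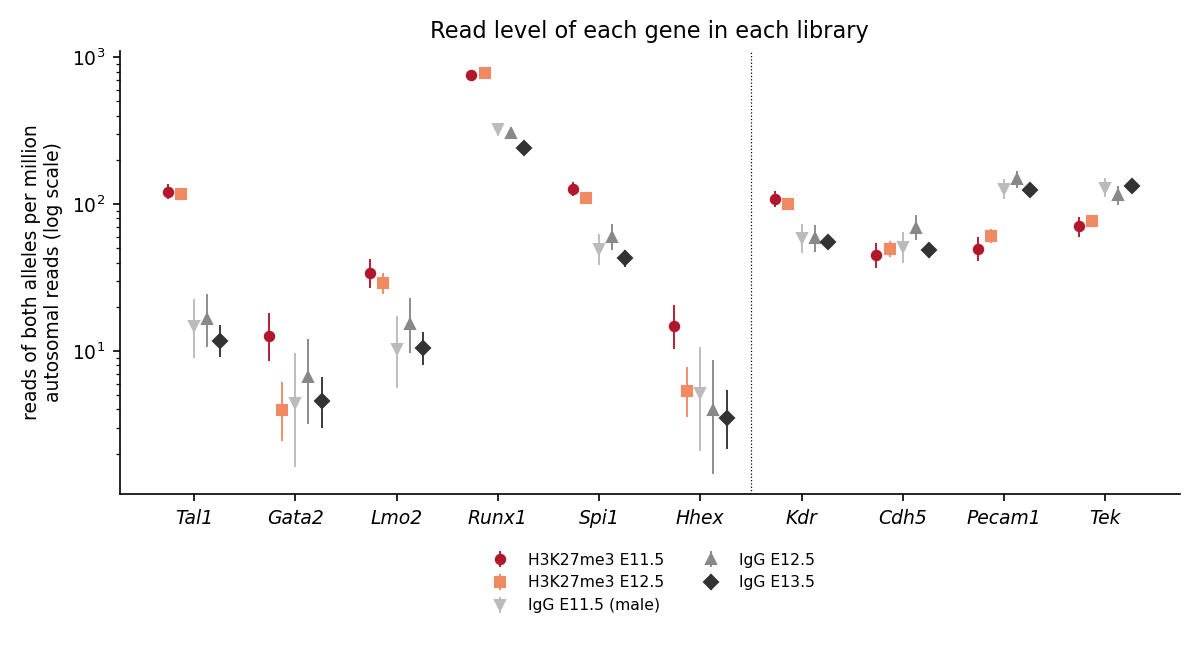
Reads of both alleles in CPM (vertical axis, log scale) for each gene in the 5 libraries, with exact Poisson 95% intervals. The dotted line parts transcription factor genes (left) from surface marker genes (right). Tal1 stands at 121 and 117 in H3K27me3 and at 16.5 or less in IgG, and Pecam1 at 60.6 or less in H3K27me3 and at 124 or more in IgG. Levels of different genes are not comparable here, since genes differ in length.

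Tal1, on chromosome 4 (chr4:115056426-115071755, GRCm38.p6, a patch release of the assembly called mm10), had the highest ratio of the 10 genes. Its level was 121 at E11.5 and 117 at E12.5 in H3K27me3, and 14.7, 16.5 and 11.7 in IgG at E11.5, E12.5 and E13.5. Both H3K27me3 values were thus far above every control. The ratio to stage-matched IgG was 8.24-fold (5.24 to 13.7) at E11.5 and 7.11-fold (4.77 to 11.1) at E12.5, higher than the log2 ratio of 98.1% and 99.3% of autosomal genes tested. Against the deeper IgG of E13.5 the ratios were 10.3-fold and 9.99-fold. Per kilobase its H3K27me3 level was 7.92 and 7.65, against a median of 0.680 and 0.691 over autosomal genes, and in IgG it was close to the median or below it (0.961, 1.08 and 0.766, against 1.04, 1.07 and 1.04).

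Lmo2 (chr2:103957903-103981878), whose product bridges TAL1 and GATA factors, was enriched less than Tal1. Its level was 34.0 and 29.1 in H3K27me3 and 10.3, 15.2 and 10.5 in IgG, so that the groups did not overlap. The ratio was 3.29-fold (1.85 to 6.29) at E11.5 and 1.92-fold (1.23 to 3.12) at E12.5, the second just under the 2-fold call. Against IgG E13.5, where the control held 60 reads in place of 23, the E12.5 ratio was 2.77-fold (2.03 to 3.80), past the call.

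Runx1 (chr16:92601466-92826074) is the longest of these genes, at 225 kb, and held the most reads. Its level was 752 and 783 in H3K27me3 and 323, 307 and 242 in IgG. The ratio was 2.33-fold (2.10 to 2.59) and 2.55-fold (2.32 to 2.82), a narrow interval that rests on 1771 and 3930 reads. Enrichment at this size was less common among long genes: of the autosomal genes longer than 56.7 kb, 7.89% were called at E12.5, against 27.9% of those up to 10.1 kb. Per kilobase the H3K27me3 level of Runx1 was 3.35 and 3.48, above 89.6% and 91.4% of autosomal genes. In IgG at E11.5, E12.5 and E13.5 its level per kilobase was also above the median, ranking above 78.9%, 64.7% and 54.1% of them.

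Spi1 (chr2:91082374-91115759) had levels of 127 and 110 in H3K27me3 and of 49.4, 60.0 and 42.8 in IgG, again without overlap. The ratio was 2.58-fold (1.97 to 3.41) at E11.5 and 1.84-fold (1.47 to 2.32) at E12.5, and 2.58-fold at E12.5 against IgG E13.5 (2.22 to 3.01). As for Lmo2, whether Spi1 was called at E12.5 thus depended on which IgG library served as control.

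Gata2 (chr6:88193891-88207032) and Hhex (chr19:37434841-37440731), both short, had the fewest reads of the 10 genes. Gata2 had a level of 12.7 in H3K27me3 (30 reads) at E11.5 and 3.98 (20 reads) at E12.5, against 4.42, 6.60 and 4.56 in IgG. Only its E11.5 value lay above the controls. Hhex had 14.9 (35 reads) at E11.5 and 5.38 (27 reads) at E12.5, against 5.16, 3.96 and 3.51 in IgG, so that its E12.5 value was close to the highest control. At E11.5 both genes had a ratio of 2.88-fold, with wide intervals (1.18 to 8.47 for Gata2 and 1.26 to 7.69 for Hhex). IgG E11.5 held 6 Gata2 reads and 7 Hhex reads, so both genes passed the filter through their H3K27me3 reads. At E12.5 the ratios were 0.604-fold (0.270 to 1.44) and 1.36-fold (0.549 to 4.02), neither distinguishable from IgG at this depth. With a pseudocount of 5 neither was called at E11.5 (log2 ratios of 0.91 and 0.97).

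Kdr (chr5:75932827-75979072) was the only surface marker gene of the 4 whose level was higher in H3K27me3 than in IgG in every pairing of libraries. Its level was 109 and 101 in H3K27me3 and 58.9, 58.7 and 55.2 in IgG, and the 3 controls differed little from each other. The ratio was 1.84-fold (1.43 to 2.4) and 1.72-fold (1.37 to 2.18), under the 2-fold call, and above 81.0% and 80.7% of autosomal genes. Set against the median autosomal gene in place of IgG alone, Kdr was 2.56-fold and 2.48-fold enriched.

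Cdh5 (chr8:104101613-104144504) sat at its IgG level. Its H3K27me3 values were 45.0 and 49.4 and its IgG values 50.8, 69.3 and 48.6, which overlap. The ratio was 0.885-fold (0.648 to 1.22) at E11.5 and 0.713-fold (0.565 to 0.905) at E12.5, and 1.02-fold against IgG E13.5. The side of 1 on which Cdh5 lay thus varied with the control, and relative to the median autosomal gene it was at 1.24-fold and 1.04-fold.

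Pecam1 and Tek had lower levels in H3K27me3 than in IgG. Pecam1 (chr11:106654213-106715281, listed in the tables with a length of 96.4 kb against 61.1 kb in RefSeq) had 49.7 and 60.6 in H3K27me3 and 127, 148 and 124 in IgG. Its ratio was 0.390-fold (0.305 to 0.496) and 0.410-fold (0.344 to 0.489), below the median autosomal gene and close to that of housekeeping genes (median 0.449-fold over 16 genes at E11.5 and 0.446-fold over 21 at E12.5). Tek (chr4:94739086-94874976) had 70.4 and 76.9 in H3K27me3 and 130, 115 and 132 in IgG. Its ratio was 0.543-fold (0.437 to 0.676) and 0.670-fold (0.559 to 0.806), which is 0.766 and 0.979 of the median autosomal gene. Pecam1 thus lay lower than Tek at both stages, with intervals of the ratio that overlap at E11.5 and not at E12.5.

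**Figure D2:**
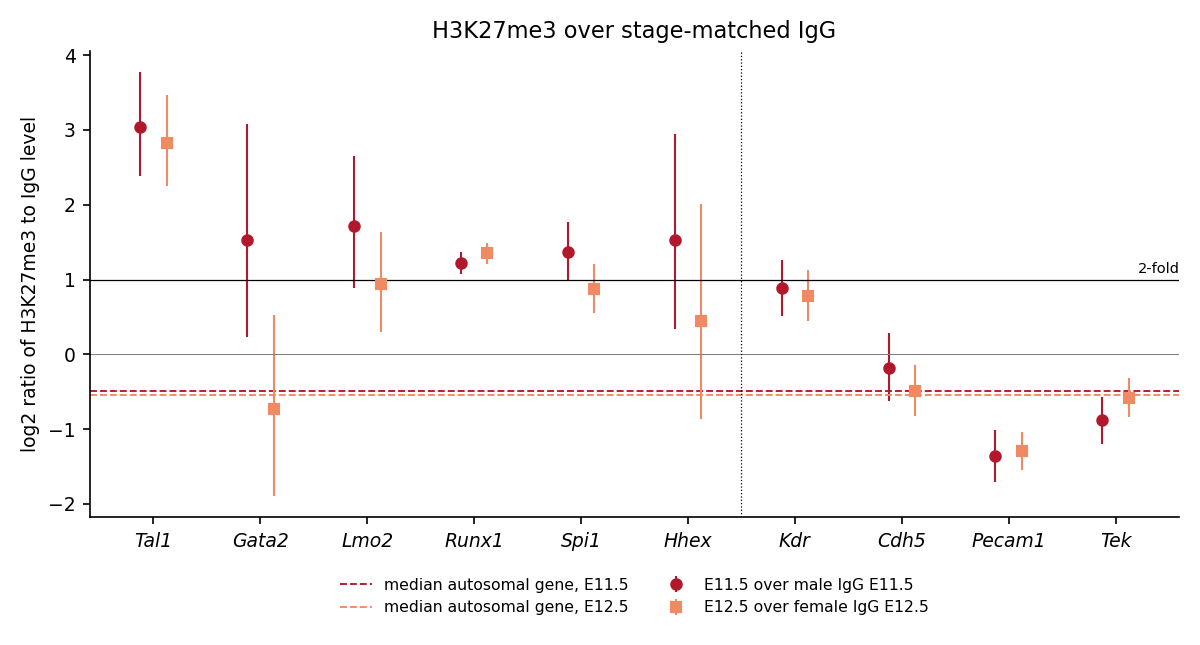
Log2 ratio of the H3K27me3 level to the level in IgG of the same stage (vertical axis), without pseudocount, with exact 95% intervals, for E11.5 (circles, male IgG) and E12.5 (squares, female IgG). Dashed lines give the median autosomal gene (-0.49 and -0.54) and the solid black line a ratio of 2-fold. All 6 transcription factor genes lie above 2-fold at E11.5, and Gata2 and Hhex have the widest intervals.

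Between the classes, transcription factor genes had median log2 ratios of 1.36 (E11.5) and 0.88 (E12.5), against -0.52 and -0.53 for surface marker genes, the latter close to the median of all autosomal genes tested (-0.49 and -0.54). The difference between classes was 1.88 in the first pair of libraries and 1.41 in the second, on the log2 scale. At E11.5 the lowest transcription factor gene, Runx1 (1.22), lay above the highest surface marker gene, Kdr (0.87). At E12.5 the classes overlapped, with Gata2 (-0.61) and Hhex (0.36) below Kdr (0.77). Reads summed over each class gave 2.61-fold (2.38 to 2.87) and 2.56-fold (2.36 to 2.79) for the transcription factors, and 0.746-fold (0.663 to 0.840) and 0.736-fold (0.669 to 0.812) for the surface markers. Runx1 held most of the summed reads, and without it the transcription factors stood at 3.69-fold and 2.60-fold. Genes are not replicates, so no test was made of the difference between classes. The classes also differed in length. At E11.5, calls fell from 34.8% in length quartile 1 (shortest) of autosomal genes tested to 16.1%, 10.7% and 7.28%. Hhex lay in quartile 1, and Tal1, Gata2 and Lmo2 in quartile 2. Spi1, Runx1 and the 4 surface marker genes lay in quartiles 3 and 4. How far length enters the class difference was not tested. With each library's median autosomal gene set to 0, 7 of the 10 genes were called at E11.5 and 5 at E12.5, against 24.8% and 25.5% of autosomal genes, Kdr being added at both stages and Lmo2 and Spi1 at E12.5. On that scale Pecam1 was not called lower at either stage, where 7.38% and 4.71% of autosomal genes were.

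Other blood and vessel genes also ranged from enriched to below IgG. These lists were drawn up with earlier results of these data known, and the counts are descriptions. Among 46 further transcription regulators of blood and vessels, 38 had enough reads at both stages and 15 were called enriched at both, against 11.9% of autosomal genes. Nr2f2, a regulator of venous identity, stood at 8.31-fold and 9.36-fold, Sox17, an arterial factor, at 5.13-fold and 5.92-fold, and Gfi1, a repressor in blood stem cells, at 9.95-fold and 5.25-fold. Hey2, Etv2 and Hlf were the other genes among the 6 highest of those 15 at E12.5. The lowest were Tcf7 (0.335-fold at E12.5), Myb (0.332-fold) and Ets2 (0.377-fold). The list's median log2 ratio was 0.84 at E11.5 and 0.89 at E12.5.

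Among 50 further surface receptors and markers, 47 had enough reads at both stages and 9 were called at both, against 11.9% of autosomal genes. The median log2 ratio was 0.44 over the 47 tested at E11.5 and 0.20 over the 48 tested at E12.5. Dll4, an arterial Notch ligand, stood at 8.85-fold and 5.72-fold, Epor, the erythropoietin receptor, at 7.41-fold and 6.45-fold, and Flt3, a cytokine receptor of blood progenitors, at 3.46-fold and 4.38-fold. Aplnr, the apelin receptor, had the highest ratio at E12.5 (13.6-fold, 2.32 to 548), which rests on 1 IgG read. Some surface genes were thus enriched more than any of Kdr, Cdh5, Pecam1 and Tek. Eng, Plvap and Ephb4 were the lowest at E12.5, at 0.421-fold, 0.491-fold and 0.510-fold. Of 15 ligand genes with enough reads at both stages, 4 were called at both, Cxcl12, Jag1, Kitl and Csf1, beside the same 11.9%. Vegfa, the ligand of KDR, was at 0.645-fold and 0.463-fold. The median log2 ratio of ligand genes was 1.01 over the 15 tested at E11.5 and 0.21 over the 18 tested at E12.5. For scale, all 29 Hox genes with enough reads, the textbook Polycomb targets, were called at both stages. This count is partly set by the filter, since many Hox genes passed it through their H3K27me3 reads. Between IgG E11.5 and IgG E12.5, 8 of the 39 Hox genes had enough reads. The median log2 ratio of Hox genes was 3.07 over the 29 tested at E11.5 and 2.83 over the 32 tested at E12.5, close to the values of Tal1.

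**Figure D3:**
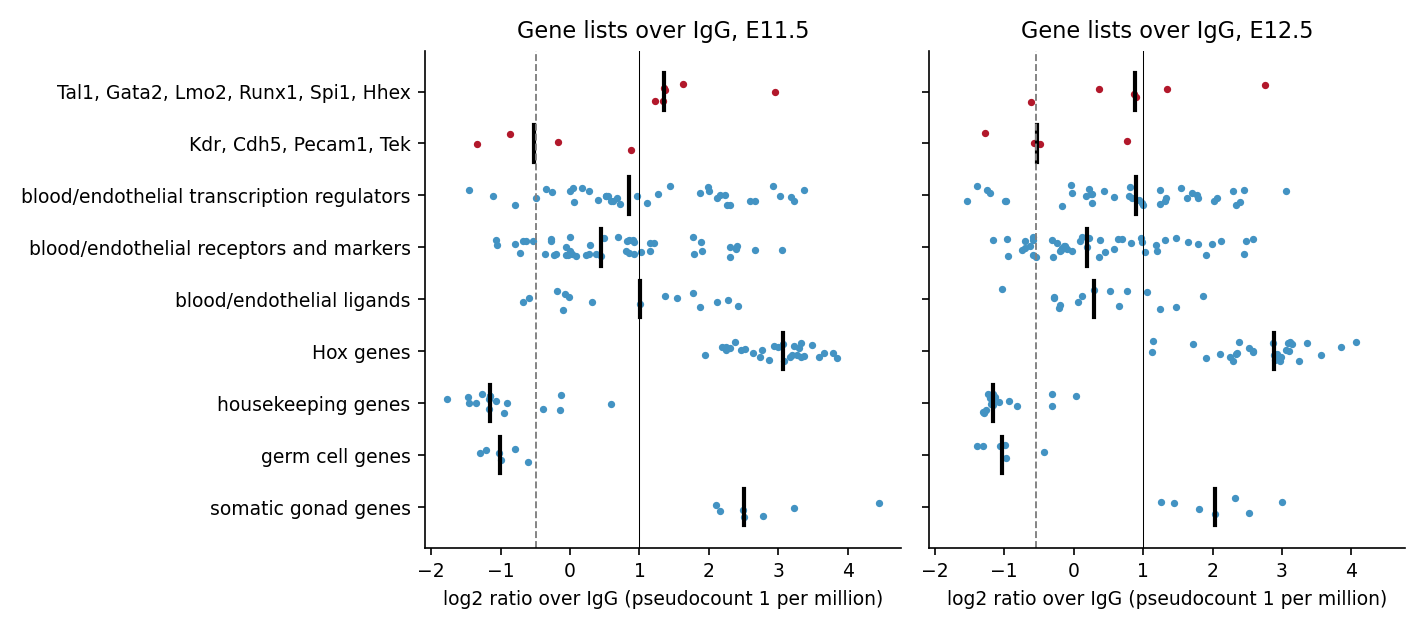
Log2 ratio of H3K27me3 to stage-matched IgG (horizontal axis, pseudocount 1 CPM) at E11.5 (left) and E12.5 (right). Each point is a gene with enough reads at both stages, black bars are medians over those genes, the dashed line is the median autosomal gene and the solid line a log2 ratio of 1. The medians of the 6 transcription factor genes (1.36 and 0.88) lie between those of housekeeping and Hox genes, and Tal1, at 2.96 and 2.76, reaches the range of the Hox genes.

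The genes that flank the 10 genes were called enriched about as often as autosomal genes in general. For each gene the nearest gene on either side that the tables name by its RefSeq symbol was taken, 20 in all, of which 4 were called enriched at E11.5 among the 19 with enough reads, and 4 of 20 at E12.5. These shares are near the 17.2% and 15.2% of all autosomal genes. Next to transcription factor genes, 10 of 11 neighbours were lower than the gene at E11.5 and 9 of 12 at E12.5, and next to surface marker genes 4 of 8 were lower at each stage. Such counts follow largely from the ranks of the 10 genes themselves. At E11.5 the transcription factor genes lay above 85.5% (Runx1) to 98.1% (Tal1) of autosomal genes tested. The surface marker genes lay above 12.6% (Pecam1) to 81.0% (Kdr). No trait particular to the neighbours is thus shown. Tal1 lies between Stil, a centriole gene, at 0.491-fold and 0.541-fold, and Pdzk1ip1 at 4.99-fold and 2.07-fold. Of the 2 genes next to Tal1, only Pdzk1ip1 was thus called. Runx1 was flanked by Clic6, a chloride channel gene 60.2 kb away, at 3.12-fold and 3.10-fold, and by Setd4, 757 kb away, at 0.288-fold and 0.418-fold. Next to Spi1, Mybpc3, a cardiac muscle gene 2.36 kb away, had 2.56-fold and 2.19-fold, near the values of Spi1 itself. Kdr lay above both of its neighbours, Kit (0.486-fold and 0.472-fold) and Srd5a3 (0.731-fold and 0.628-fold). Kit, the stem cell factor receptor gene that is active in PGCs, lies 276 kb from Kdr. Both neighbours of Cdh5 were higher than Cdh5 itself, Bean1 at 2.33-fold and 1.85-fold and Cdh11, another cadherin gene 1316 kb away, at 1.20-fold and 2.12-fold.

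**Figure D4:**
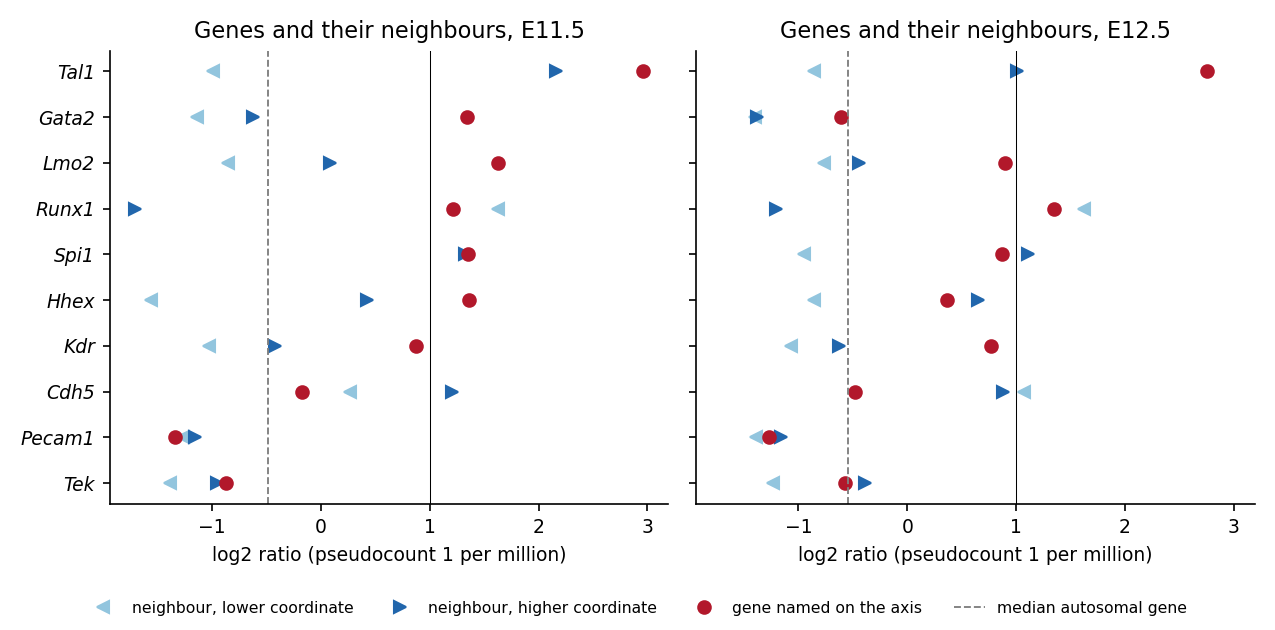
Log2 ratio of H3K27me3 to stage-matched IgG (horizontal axis, pseudocount 1 CPM) for each of the 10 genes (circles) and its nearest neighbour at lower and higher coordinates (triangles), where the pair had at least 20 reads. The dashed line is the median autosomal gene and the solid line a log2 ratio of 1. Clic6, Mybpc3 and Pdzk1ip1 are called with Runx1, Spi1 and Tal1 at E11.5. Both neighbours of Tal1, Gata2, Lmo2 and Kdr lie left of the gene itself at both stages, and those of Hhex and Tek at E11.5 only.

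Between the stages, Gata2 and Hhex were lower at E12.5 than at E11.5, and the other 8 genes stood between 0.857-fold and 1.22-fold of their E11.5 level. The Gata2 level went from 12.7 to 3.98, a ratio of 0.313 (0.168 to 0.570), and the Hhex level from 14.9 to 5.38, a ratio of 0.362 (0.211 to 0.616). Of the 10 genes 2 were thus called lower, against 0.787% of 16526 autosomal genes, and none was called higher, against 0.756%. Only 0.0545% and 0.169% of autosomal genes tested had a lower log2 ratio than Gata2 and Hhex. The calls rest on 50 and 62 reads. Among genes with 20 to 49 reads in both libraries, 1.95% fell by this measure and 3.16% rose, and among those with 50 to 99 reads 0.971% fell and 0.765% rose. With a pseudocount of 5 neither was called (log2 ratios of -0.98 and -0.94). In IgG, from males at E11.5 to females at E12.5, Gata2 was at 1.49-fold (0.492 to 5.00) and Hhex at 0.768-fold (0.213 to 2.67), with 10 reads or fewer in each library.

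Tal1 stood at 0.967-fold from E11.5 to E12.5 (0.838 to 1.12), Lmo2 at 0.857-fold (0.648 to 1.14), Runx1 at 1.04-fold (0.985 to 1.10) and Spi1 at 0.867-fold (0.752 to 1.001). The surface marker genes were at 0.928-fold (Kdr), 1.10-fold (Cdh5), 1.22-fold (Pecam1) and 1.09-fold (Tek), and all 4 intervals include 1. Of the wider lists, Foxc1 (0.356-fold), Foxc2 (0.446-fold), Thpo (0.419-fold) and Jag2 (0.435-fold) were also called lower at E12.5, and no gene of any list was called higher, with the pseudocount of 1 CPM. Foxc1 and Foxc2 are forkhead genes of vessel and mesoderm development, Thpo encodes thrombopoietin and Jag2 a Notch ligand. Jag2 rests on 202 and 187 reads, and its IgG reads also differed, with 23 in the E11.5 control and 69 in the E12.5 control.

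The CpG content of the start windows was set beside the calls over all genes. Of autosomal genes with a CpG-rich window, 11.2% were called enriched in the E11.5 pair and 8.04% in the E12.5 pair, while of those without one 20.8% and 20.8%. Between the stages, 0.901% of genes with a CpG-rich window were called lower at E12.5, and 0.670% of those without one. The counts cover whole genes and do not show where in a gene the reads lie. The letters GGAA or TTCC, the core that ETS factors such as SPI1 recognise, occurred on either strand in all 9 windows of these genes and in 93.4% of all windows. AGATA or TATCT, a form of the site read by GATA factors, occurred in 1 of the 9, the outer Tal1 window shown above, and in 26.6% of all. Matches of these motifs can share a base, and a match here is a run of letters and not a bound site.

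The division of reads between the alleles was near even for most of the 10 genes. Leaving out Hhex, the second allele held 49.2% of 3112 reads at E11.5 (47.4 to 51.0) and 49.3% of 6683 reads at E12.5 (48.1 to 50.6) in H3K27me3, against 51.7%, 52.9% and 52.6% in IgG. Runx1 alone held 1771 and 3930 of these H3K27me3 reads, with 46.7% and 47.6% on the second allele. The pooled shares thus mostly reflect Runx1, and they show no difference from IgG for the other genes. An exact two-sided binomial test of each gene against the pooled autosomal share of its library (51.6% and 50.9%), with Benjamini-Hochberg adjustment over all X and autosomal genes with at least 10 reads, called 3 genes at each stage, Runx1 and Hhex at both, Spi1 at E11.5 and Lmo2 at E12.5. It called 12.1% and 17.9% of autosomal genes. Against IgG of E12.5, Fisher's exact test with the same adjustment called none of the 9 genes with enough reads, and none had an unadjusted p under 0.05. It called 2.81% of autosomal genes.

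Runx1 had slightly more first-allele reads in both H3K27me3 libraries and not in IgG. Its second-allele share was 46.7% (44.4 to 49.1) at E11.5 and 47.6% (46.0 to 49.2) at E12.5, and 53.0%, 51.0% and 52.1% in the IgG libraries. The binomial test gave adjusted p = 0.000548 and 0.000281 for H3K27me3, for differences of -4.89 and -3.34 points from the library. In the direct comparison at E12.5, Fisher's exact test gave an adjusted p = 0.707 against IgG E12.5, and 0.0526 against IgG E13.5 (unadjusted p = 0.00439), so that the difference from IgG did not pass. Against IgG E13.5 the test called none of the 10 genes, with Runx1 alone at an unadjusted p under 0.05, and 6.65% of autosomal genes. Taken by allele at E12.5, the ratio to IgG was 2.72-fold on the first allele (2.37 to 3.13) and 2.39-fold on the second (2.09 to 2.75). Both alleles of Runx1 were thus enriched.

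Hhex was read almost entirely as the second allele in every library, IgG included. It had 35 of 35 second-allele reads at E11.5 and 27 of 27 at E12.5, and in IgG 7 of 7, 6 of 6 and 19 of 20. The 62 H3K27me3 reads without a first-allele read allow a first-allele share of up to 4.84%. This limit takes a count of 0 to allow up to 3 reads, an approximate one-sided 95% limit and not a Clopper-Pearson interval. In IgG the summed count was 32 of 33. A second-allele share of at least 95% in the summed IgG reads was shown by 1.48% of autosomal genes, and genes one-sided to the first allele were not counted. The binomial call of Hhex (adjusted p = 3.14e-09 at E11.5 and 2.49e-07 at E12.5) is thus matched in libraries without the mark, and the level of Hhex rests on 1 allele.

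Lmo2 and Spi1 were called at 1 stage each. The Lmo2 share was 46.3% (35 to 57.8) at E11.5 and 64.4% (56.0 to 72.1, adjusted p = 0.00827 by the exact binomial test) at E12.5, and its IgG shares were 78.6%, 60.9% and 53.3%. By the same exact test, the Spi1 share was 59.7% (53.9 to 65.3, adjusted p = 0.0421) and 51.8% (47.6 to 56.0), with IgG between 47.3% and 51.2%. Fisher's exact test between the 2 stages called none of the 10 genes, against 0.536% of autosomal genes, with adjusted p = 0.505 for Lmo2 and 0.727 for Spi1 and an unadjusted p under 0.05 for these 2 alone.

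Of the surface marker genes, none was called in H3K27me3 at either stage. Tek leaned to the second allele in all 5 libraries, at 60.2% and 56.5% in H3K27me3 and 56.3%, 55.7% and 60.5% in IgG. The binomial test called Tek in the deepest of them, IgG E13.5 (754 reads, adjusted p = 1.16e-05, exact binomial), where it called 7.88% of autosomal genes. The share of Tek is thus tilted in a library without the mark. Cdh5 leaned to the first allele in H3K27me3 (42.5% and 43.5%, adjusted p = 0.269 and 0.0966 by the exact binomial test), Kdr stood at 46.9% and 50.8%, and Pecam1 at 53.8% and 47.7%. Tal1, with 51.4% and 52.3%, was even in H3K27me3, and its IgG E11.5 and E12.5 shares of 35% and 72% rest on 20 and 25 reads. The Gata2 shares, 43.3% (25.5 to 62.6) and 50% (27.2 to 72.8), are too wide to place.

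**Figure D5:**
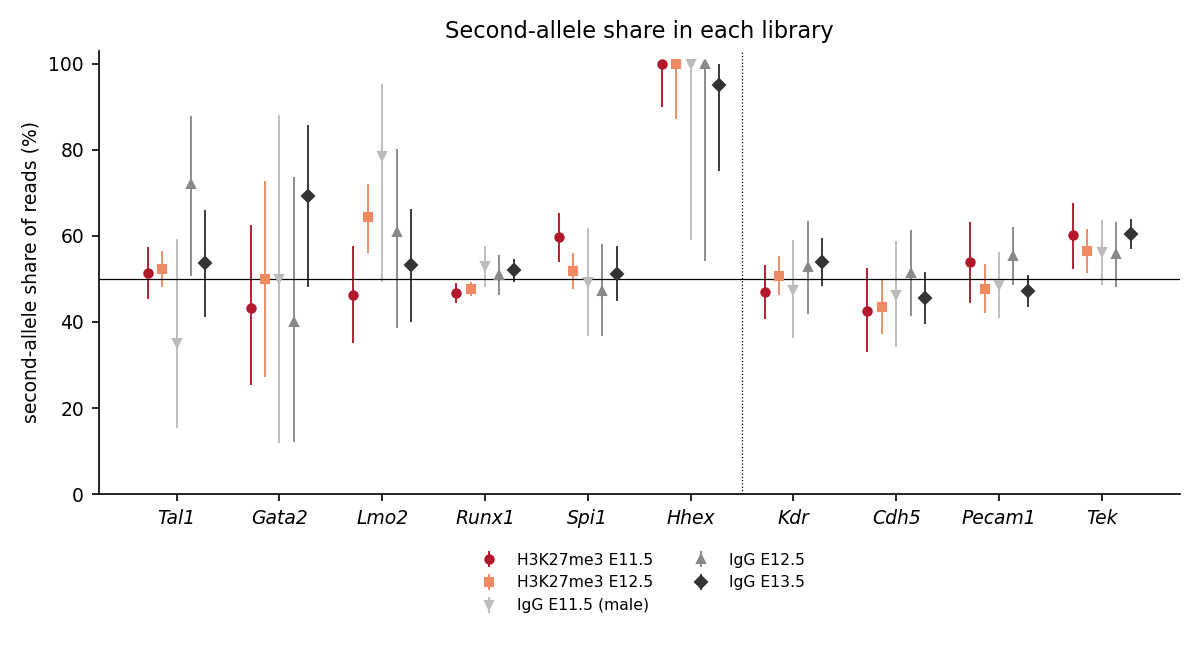
Percent of allelic reads on the second allele (vertical axis) for each gene in the 5 libraries, with exact Clopper-Pearson 95% intervals and a line at 50%. Hhex is at 95% or more in all libraries, Runx1 is at 46.7% and 47.6% in H3K27me3 with the narrowest intervals, and Gata2 has wide intervals throughout.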

How the data were processed

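Per the labels, CUT&RUN was run for H3K27me3 or IgG on sorted PGCs. The submitters' processing notes name, with no order, Bowtie2 2.4.2, cutadapt 4.1, Trim Galore 0.6.6, featureCounts, MACS2 2.2.7.1, SAMtools 1.11, deepTools 3.5.1, GATK, FastQC 0.11.9 and MultiQC 1.13, and the build mm10. What each tool did, how duplicates were treated and how reads were assigned to alleles is not given in the sources used here. The deposited files give whole-number counts of reads per gene on each of 2 alleles, not normalised, and the deposited fraction of reads on the second allele, printed here as a percent. Which strain is which allele is not stated, and reads without a strain variant are not counted, so levels of different genes also depend on their variants.

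Levels were counts per 1000000 reads (CPM) of chromosomes 1 to 19. Ratios carry exact conditional 95% intervals and shares Clopper-Pearson intervals (scipy 1.17.1, Python 3.11.15), which cover counting error only, since PCR duplicates may remain. Calls, filters and tests are given where first used, and all ran over the whole table. All 10 genes passed the filter of 20 reads at both stages. Lists held 22 to 50 further pathway genes, and Hox, housekeeping, germ cell and somatic gonad genes. From each, up to 6 genes called at both stages and the 3 lowest at E12.5 were eligible to be named. The 10 genes and the lists were chosen with earlier results of these data known. Positions are from RefSeq, matched by symbol for 21087 genes. In the tables no other gene overlapped any of the 10, while RefSeq places a lncRNA over 6 of them, whose reads cannot be told apart without strand.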

Additional observations from a re-analysis of the deposited data

Results flagged for a closer look

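The log2 ratio of Gata2 had opposite signs at the 2 stages. Its log2 ratio of H3K27me3 to stage-matched IgG, with a pseudocount of 1 CPM, was 1.34 at E11.5 and -0.61 at E12.5. At E12.5 the ratio of levels, 0.604-fold (0.270 to 1.44), was not distinguishable from IgG at this depth, and relative to the median autosomal gene it was 0.955-fold, so that no level below that of a typical gene is shown. This difference was not tested, as each stage had 1 library. The ratios rest on 30 and 6 reads at E11.5 and on 20 and 10 reads at E12.5, and the E11.5 control was male. Against IgG E13.5 the log2 ratios were 1.31 and -0.16.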

How the results depend on the processing

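No paired analysis was possible because each group had 1 library with a table, and for the same reason no replicate could be left out. Of 58 alternative values of counts and class differences, 41 did not move and 17 did, the counts by over 1.5 times and the class differences by any amount, since no spread could be set on them. Of 242 alternative values for single genes, 27 moved beyond the counting interval, and none turned a higher call into a lower one or the reverse. Calls were gained or lost: at E12.5, Lmo2 and Spi1 gained theirs against IgG E13.5, against summed IgG and with the median gene at 0, and Spi1 with second-allele reads only (1.002). At E11.5, Gata2 and Hhex lost theirs with a pseudocount of 5, and Lmo2 with second-allele reads only (0.89). With the median gene at 0, Kdr gained and Pecam1 lost its call at both stages. The cause was not tested. At E12.5, 4 of the 10 genes were enriched against IgG E13.5 and 4 against the summed IgG libraries, in place of 2. With the median gene at 0, 5 of the 10 and 4221 autosomal genes were called. That centring changed the split of autosomal calls at E12.5 from 2511 higher and 4881 lower to 4221 and 778, and at E11.5 from 2591 and 4466 to 3734 and 1110. For the change between stages, a pseudocount of 5 called 0 of the 10 genes and 25 autosomal genes in place of 2 and 255. No filter on reads called 434, and subtracting the IgG change called 2378, which adds the counting error of the IgG libraries. Shares against IgG E13.5 in place of E12.5 gave 1111 called autosomal genes in place of 410. The difference between transcription factors and surface markers on the log2 scale was 1.87 at E11.5 and 1.39 at E12.5 without Lmo2, 2.12 and 1.74 against IgG E13.5, 1.81 and 1.80 with reads summed over each class, and 2.31 and 1.82 when Runx1 was also left out of the sums, a setting chosen after seeing the data.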
